A study of Mus musculus with 11 samples.

Results

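Ribosome biogenesis genes were followed as a set of 38 genes that encode RNA polymerase I subunits and factors, the proteins of small nucleolar ribonucleoproteins (snoRNPs), and factors that process the precursors of the ribosomal subunits. They were picked by gene symbol and no measured value was a criterion, but earlier results of these data were known at the time. All 38 were found among the 48709 genes of the count table and passed its filter on low counts. RNA was sequenced from skeletal muscle stem cells (satellite cells) of C57BL/6 mice that carry the transgene Tg:Pax7-nGFP, a nuclear green fluorescent protein whose expression follows that of Pax7, the gene of a transcription factor specific to satellite cells in this tissue. The cells came from pectoral, forelimb and hindlimb muscles; the age of the mice is not given in the sources used here. In T0 the muscles were fixed whole in 0.5% paraformaldehyde for 1 h at 4 °C before any cell was released (3 libraries). In T3 the cells were first released and sorted, and then fixed in 0.5% paraformaldehyde for 30 min on ice (4 libraries). T5 added 2 h at 37 °C to the handling of T3 (4 libraries). One label places those 2 h on the dissected muscle and another on cells already isolated, and the sources used here do not settle which holds. The fixation of whole muscle or of sorted cells goes with the group and cannot be told apart from the isolation.

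Ribosomes are assembled in the nucleolus. RNA polymerase I transcribes the long precursor of the 18S, 5.8S and 28S ribosomal RNAs, box C/D and box H/ACA snoRNPs modify it, and the small subunit processome and a chain of 60S assembly factors cleave, fold and export it with ribosomal proteins. Output of this pathway sets how fast a cell can grow, and a resting stem cell that prepares to divide is known to enlarge its nucleolus. Many genes of the pathway are targets of the transcription factor MYC.

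The libraries held between 49078859 and 102347035 counts. The T5 titles share letters, so libraries of 1 letter were added up and T5 had 2 replicates, A and B; libraries of 1 letter were no closer to each other than those of different letters. Nothing in the labels says that libraries came from separate animals, so p-values reflect only the variation among these libraries, part of which may be technical. Each level is in CPM (counts relative to library sizes corrected by TMM), and a gene was called at an adjusted p under 0.05 in edgeR's quasi-likelihood test over 31999 genes. T0 replicate 3 stood apart: it was the lowest of the 3 T0 libraries for 36 of the 38 genes, with a median ratio of 0.555 to the mean of the other T0 libraries, against 0.857 over all genes tested. Counts of the set and some estimates are also given without it, and the other values only with it.

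Isolation was accompanied by a rise of most of the set. In T3, 32 of the 38 genes were higher than in T0 and none was lower, where 15.0% of all genes tested were higher and 22.9% were lower (edgeR, adjusted p under 0.05). DESeq2 also called 32 higher and 0 lower, where it called 4832 of all genes higher and 7082 lower. No gene of the set was lower in edgeR at an unadjusted p under 0.05. The median log2 fold change of the set was 1.54, against 0.05 for all genes, and all 38 estimates were above 0. Every T3 library lay above every T0 library for 32 of the 38, against 16.2% of all genes. Without T0 replicate 3 the count higher was again 32, the median was 1.31 and 22.4% of all genes were higher. Upper quartile scaling, which moves the median of all genes from 0.05 to 0.32, left all 38 estimates above 0 with a median of 1.88.

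**Figure D1:**
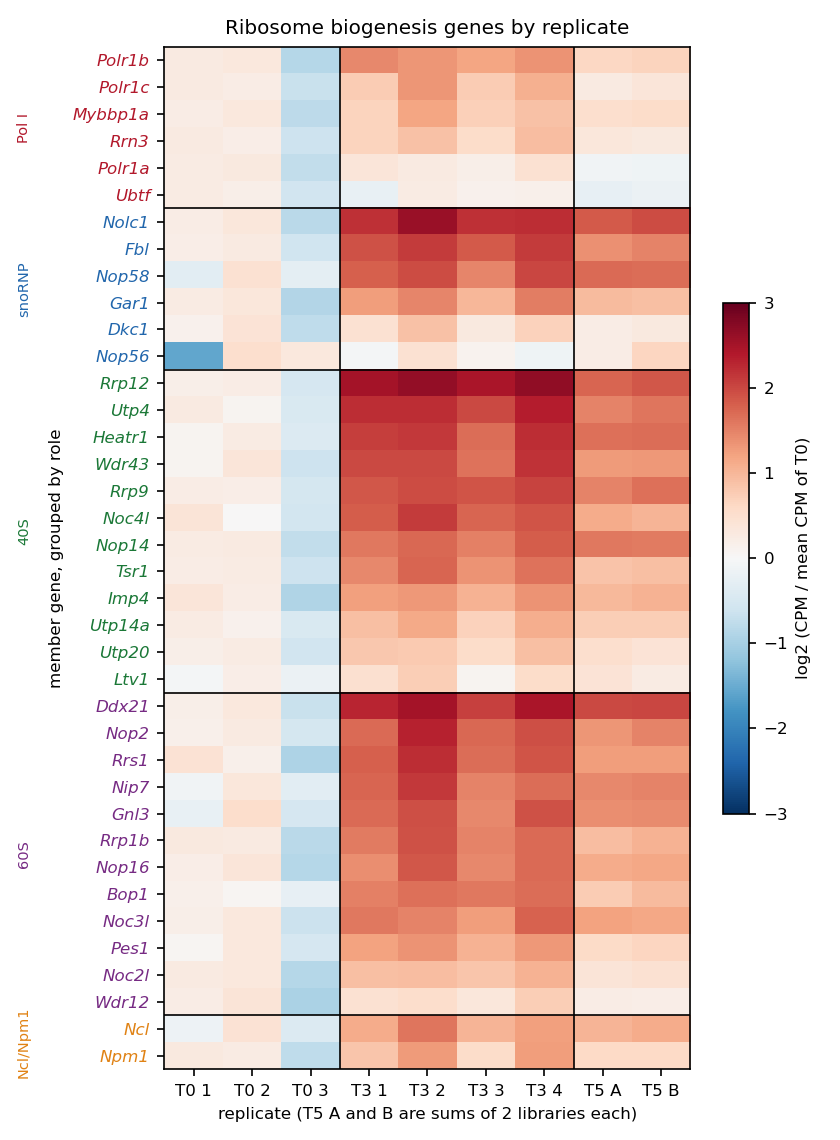
Level of each of the 38 genes (rows, grouped by role and ordered by change) in each replicate (columns), as log2 of CPM over the gene's mean CPM in T0; red is above and blue below that mean. The T3 columns are the reddest in most rows, the T5 columns are paler, and the column of T0 replicate 3 is blue in nearly every row.

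In bulk RNA, fewer cells of a type and less RNA per cell cannot be told apart. Markers of other cells moved as well: the summed level of 10 myofibre markers was 65.1 to 74 CPM in T0 and 122 to 186 CPM in T3, with 9 of the 10 higher. Ttn, among the higher ones, made up most of that sum, with a mean of 47.5 CPM in T0 and 79.96 in T3. The summed level of 6 endothelial markers was 209 to 257 CPM in T0 and 330 to 430 CPM in T3, with 2 of the 6 higher. Tek, which was not called, made up most of the endothelial sum, with a mean of 155.3 CPM in T0 and 227.3 in T3. The 8 satellite cell markers were detected in every replicate, and summed to 4410 to 6170 CPM in T0, 1790 to 2240 CPM in T3 and 1470 to 1530 CPM in T5. In T3 against T0, 4 of them were lower and 2 higher, and Pax7, which made up most of the T0 sum, fell from a mean of 3613 to 315 CPM. Immune markers summed to 21.9 to 44.8 CPM in T0 and 34.1 to 48.1 in T3, with 3 of 6 higher. Fibro-adipogenic markers summed to 435 to 635 and 238 to 400, with 1 of 6 higher (Col1a1) and 1 lower. The lower one, Col3a1, made up most of that sum, with a mean of 489.6 CPM in T0 and 260.8 in T3. Erythroid markers summed to 33.7 to 35.3 and 9.49 to 26.1. Of these 5, only Alas2 was called, lower, with a mean of 24.9 CPM in T0 and 8.35 in T3. None of these markers was at 0 in any replicate, and their part in the results was not tested.

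RNA polymerase I genes had the smallest median change of the 5 role groups; differences between the groups were not tested. Of its 6 genes 4 were higher in T3 than in T0, with a median log2 fold change of 0.82. Polr1b, the second-largest subunit of the enzyme (chromosome 2, 129100995 to 129126594, GRCm38), stood at 34, 35 and 15.4 CPM in T0, at 76.8, 70.2, 64.4 and 71.7 CPM in T3 and at 43.3 and 44.7 CPM in T5. Its T3 libraries all lay above its T0 libraries, a rise of 2.51-fold (log2 1.33 ± 0.24 SE, edgeR adjusted p = 1.02e-04). Polr1c, a subunit shared with RNA polymerase III (chromosome 17, 46243920 to 46248054), stood at 13.6, 13.1 and 7.17 CPM in T0, at 19.2, 28.5, 19.1 and 23.6 CPM in T3 and at 13.6 and 14.7 CPM in T5. The groups T0 and T3 did not overlap and the rise was 2-fold (log2 1.00 ± 0.24, adjusted p = 1.39e-03). Mybbp1a, a nucleolar protein that binds the polymerase and represses it, stood at 108.2, 115.9 and 53.3 CPM in T0, at 148, 209.9, 152.8 and 170.1 CPM in T3 and at 131.9 and 135.9 CPM in T5, and rose by 0.88 ± 0.24 on the log2 scale (adjusted p = 5.52e-03). Rrn3, which carries the polymerase to the promoter, rose 1.7-fold (log2 0.77 ± 0.22).

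Polr1a and Ubtf did not pass the test in T3 against T0. Polr1a, the largest subunit and the one that holds the catalytic center, stood at 125.9, 129.1 and 63.3 CPM in T0, at 137.5, 127.5, 119.1 and 145.7 CPM in T3 and at 99.1 and 97.7 CPM in T5 (log2 0.32 ± 0.23, adjusted p = 0.313). The groups overlapped, and without T0 replicate 3 the estimate was 0.06. Ubtf, the factor that coats active ribosomal DNA, stood at 100.3, 95.3 and 56.7 CPM in T0, at 71.6, 100, 92.2 and 93.4 CPM in T3 and at 71.2 and 75 CPM in T5 (log2 0.09 ± 0.22, adjusted p = 0.797). Its groups overlapped as well, and without T0 replicate 3 the estimate was −0.13. The share of counts in 358 ribosomal RNA loci was 3.57, 9.62 and 13.8% in T0, 7.32, 8.7, 9.74 and 5.1% in T3 and 9.46 and 12.7% in T5. These loci are a mixed class and no readout of RNA polymerase I alone. The 2 genes assigned to the 45S repeat, the source of the long precursor, held 50 to 67.4% of the counts in the class, and other loci the rest. Among the others, 180 are copies of the 5S gene, which RNA polymerase III transcribes, and they held 0.17 to 0.702% of the counts in the class. The mean was 7.71 ± 2.01% in T3 (SD, n = 4) and 9 ± 5.14% in T0 (n = 3), and the ranges overlapped (two-sided exact permutation test, p = 0.686). With 3 against 4 libraries that test cannot go below 0.0571, so it does not tell whether the groups differ.

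Among the 6 snoRNP genes 4 were higher in T3 than in T0 and the median log2 fold change was 1.58. Nolc1, which encodes the chaperone Nopp140 of snoRNPs (chromosome 19, 46075863 to 46085530), stood at 45, 48.2 and 21.8 CPM in T0, at 173.8, 232.4, 175 and 177.4 CPM in T3 and at 136.9 and 147.7 CPM in T5. All 4 T3 libraries and both T5 replicates lay above T0, and the rise in T3 was 4.95-fold (log2 2.31 ± 0.26, edgeR adjusted p = 1.97e-07). Fbl, fibrillarin, the methyltransferase of box C/D snoRNPs (chromosome 7, 28169710 to 28179269), stood at 11.6, 12.2 and 6.73 CPM in T0, at 38.4, 43.6, 36 and 43.2 CPM in T3 and at 26.1 and 28.7 CPM in T5. T5 lay between T0 and T3 without overlap, and the rise in T3 was 3.98-fold (log2 1.99 ± 0.23, adjusted p = 2.59e-07). Nop58, a core protein of the same particles (chromosome 1, 59684971 to 59719044), stood at 90.1, 154.9 and 91.5 CPM in T0, at 391.1, 432.8, 309.6 and 451.4 CPM in T3 and at 362.4 and 359 CPM in T5, with a rise in T3 of 3.53-fold (log2 1.82 ± 0.24, adjusted p = 1.90e-06). In the box H/ACA particles, which turn uridine into pseudouridine, Gar1 rose 2.52-fold. Dkc1, the pseudouridine synthase dyskerin, had an estimate of 0.60 ± 0.24 and did not pass (adjusted p = 0.0521).

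Nop56, the partner of Nop58 in the box C/D particle (chromosome 2, 130274430 to 130279313, plus strand), went apart from its group in the deposited counts. It stood at 125.4, 524.1 and 462.1 CPM in T0, at 357.8, 511.3, 401 and 340.1 CPM in T3 and at 434.3 and 576 CPM in T5, with an estimate of 0.12 ± 0.32 in T3 against T0 (edgeR adjusted p = 0.809). T0 replicate 1 was the lowest of all libraries, and T0 and T3 overlapped. 5 snoRNA genes lie in introns of Nop56, on its strand, and the table counts their reads both under their own names and under Nop56. Of the Nop56 count they made up 79.1, 93.6 and 96.9% in T0, 73.7, 76.2, 76.9 and 70.3% in T3 and 86.9 and 88.7% in T5. The 4 of them with the highest counts are shown, since they are what most Nop56 reads were; capitals mark GATG within the first 20 bases, the core of the C box, and CTGA within the last 12 bases, the core of the D box. They are GENCODE vM21 transcripts, 5′ to 3′, and the last holds neither motif in those windows.
Snord110, chr2:130275506-130275573: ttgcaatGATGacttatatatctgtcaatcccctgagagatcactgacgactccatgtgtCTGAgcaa
Gm23650, chr2:130277697-130277766: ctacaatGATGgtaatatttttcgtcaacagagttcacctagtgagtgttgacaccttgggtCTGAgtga
Snord57, chr2:130278016-130278087: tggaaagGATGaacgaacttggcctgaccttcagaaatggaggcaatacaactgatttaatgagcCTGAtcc
Gm24451, chr2:130276237-130276369: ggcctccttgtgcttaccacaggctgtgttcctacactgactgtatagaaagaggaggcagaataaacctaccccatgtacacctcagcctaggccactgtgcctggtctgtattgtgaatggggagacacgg

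With the counts of nested snoRNA genes subtracted from their hosts, an alternative chosen after the data were seen, Nop56 stood at 26.4, 34 and 14.5 CPM in T0, at 94.7, 122.6, 93.3 and 101.7 CPM in T3 and at 57.2 and 65.4 CPM in T5. The 3 groups then did not overlap, T3 was highest and T0 lowest, and T0 replicate 3 was the lowest library. The rise in T3 was 4.13-fold (log2 2.05 ± 0.25, edgeR adjusted p = 7.41e-07), close to the 3.98-fold of Fbl. Of the set, 33 genes were then higher in T3 than in T0, where 15.1% of all genes were.

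The snoRNAs themselves did not follow. Gm23650 stood at 28.8, 170.8 and 155.1 CPM in T0, at 101.5, 125.6, 76.5 and 101.7 CPM in T3 and at 145.6 and 200.3 CPM in T5 (log2 −0.22 ± 0.36, edgeR adjusted p = 0.679). Snord57 stood at 18.6, 113.1 and 88.8 CPM in T0, at 51.7, 84.4, 72 and 42 CPM in T3 and at 72.9 and 95.9 CPM in T5 (log2 −0.23 ± 0.36). For both snoRNAs T0 replicate 1 was the lowest library and the groups T0 and T3 overlapped. All snoRNA genes together took 0.481, 1.45 and 1.65% of the counts in T0 and 0.788 to 1.18% in T3, so the low snoRNAs of T0 replicate 1 were not those of Nop56 alone. Of 21 snoRNA genes nested in 7 genes of the set, 3 were higher in T3 than in T0 and none was lower. Over all genes tested 15.0% were higher and 22.9% lower. The 3 were Snord53, Gm23187 and Gm25520, all under 3 CPM.

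**Figure D2:**
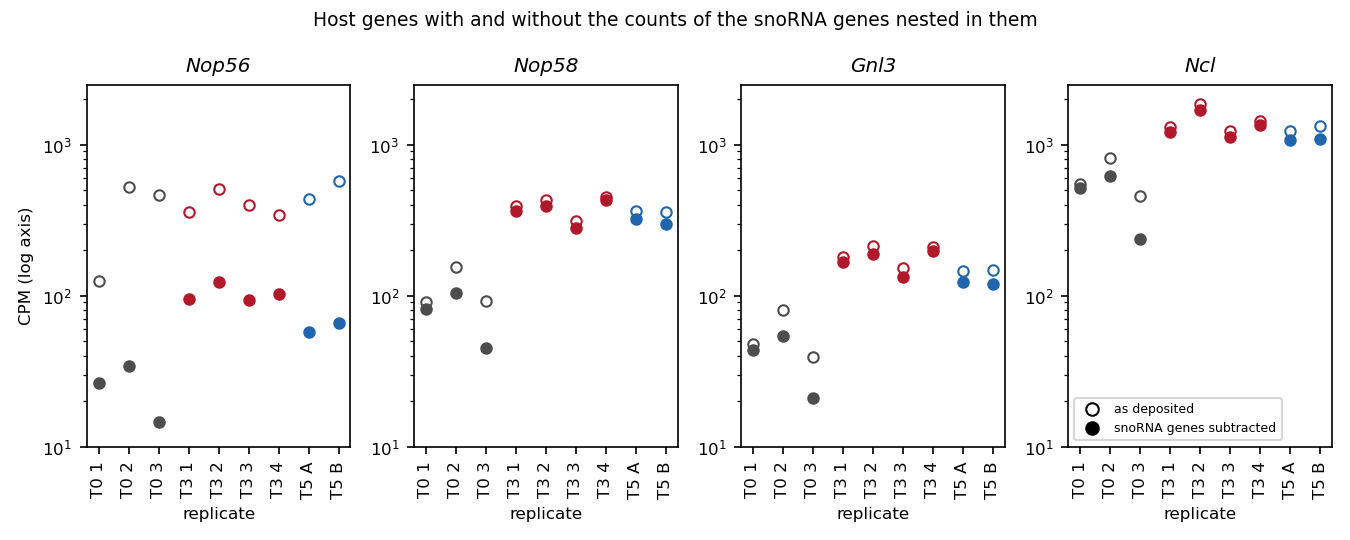
CPM (log axis, same range in each panel) of 4 host genes in each replicate, with the counts of nested snoRNA genes included (open) and subtracted (filled); T0 grey, T3 red, T5 blue. For Nop56 the open points of T0 and T3 overlap and the filled points do not, while for Nop58, Gnl3 and Ncl the gap between open and filled points is widest in T0 replicate 3.

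Other hosts were touched less. In Nop58, with 4 nested snoRNA genes, they made up 9.49, 33.7 and 51% of the count in T0 and 5.61 to 10.9% in T3, and its log2 fold change was 1.82 with them and 2.25 without. For Gnl3, with 3, the change was 1.76 with them and 2.11 without. For Ncl, also with 3, it was 1.26 and 1.56. In Wdr43, Tsr1 and Dkc1 the estimate moved by less than 0.1. The counts hold reads of both strands too, so 16 of the 38 genes, which overlap a gene on the other strand, are uncertain: Polr1a, Mybbp1a, Nop56, Dkc1, Heatr1, Utp14a, Rrp9, Imp4, Nop14, Tsr1, Pes1, Bop1, Wdr12, Noc2l, Rrp1b and Gnl3. Of the 19 genes with neither an overlapping gene on the other strand nor a nested snoRNA, 17 were higher in T3 than in T0. Overlap with other genes on the same strand was not considered.

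In the deposited counts the 40S factors had the highest median change of the role groups. With nested snoRNA counts subtracted the snoRNP median lay higher, since Nop56 then had a log2 fold change of 2.05 and Nop58 of 2.25. Of 12 genes of the small subunit processome and 40S maturation 11 were higher in T3 than in T0, with a median log2 fold change of 1.78. Rrp12, needed for the export of both subunits (chromosome 19, 41862851 to 41896173), stood at 20.4, 21.4 and 12.8 CPM in T0, at 102.2, 113.9, 99.3 and 114.3 CPM in T3 and at 61.2 and 65.9 CPM in T5. Its 3 groups did not overlap, and its rise of 5.91-fold in T3 was the largest of the 38 (log2 2.56 ± 0.23, edgeR adjusted p = 8.35e-09; 2.36 without T0 replicate 3). Utp4, a WD-repeat protein of the UtpA subcomplex that binds the precursor first (chromosome 8, 106893636 to 106923088), stood at 27.1, 23.7 and 16.2 CPM in T0, at 103, 104.5, 87.9 and 115 CPM in T3 and at 63 and 67.9 CPM in T5. It too had T5 between T0 and T3 without overlap, and rose 4.59-fold in T3 (log2 2.20 ± 0.22, adjusted p = 5.15e-08). Heatr1, another member of that subcomplex (chromosome 13, 12395027 to 12440289), stood at 53.5, 60.3 and 38.1 CPM in T0, at 213, 219.6, 162.3 and 236.7 CPM in T3 and at 160.2 and 160.7 CPM in T5 (log2 2.04 ± 0.23, adjusted p = 1.80e-07).

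The remaining 40S genes spanned a wide range. Wdr43, Rrp9, Noc4l, Nop14 and Tsr1 rose by 1.55 to 1.96 on the log2 scale, and Rrp9 among them binds the U3 snoRNA that guides the first cleavages. Imp4, a U3 protein, rose by 1.23 and the processome scaffold and helicase cofactor genes Utp20 and Utp14a rose by 0.76 and 0.97. Ltv1, an export and maturation factor of the 40S particle, stood at 22.7, 26.9 and 20.8 CPM in T0, at 32.5, 38.9, 25 and 34.6 CPM in T3 and at 31.4 and 27.8 CPM in T5. The T3 library at 25 CPM lay within the T0 range, and the estimate of 0.48 ± 0.20 did not pass (edgeR adjusted p = 0.0691).

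Among 12 genes of 60S assembly 11 were higher in T3 than in T0, with a median log2 fold change of 1.64. Ddx21, an RNA helicase that acts in both RNA polymerase I transcription and processing (chromosome 10, 62580251 to 62602281), stood at 96.5, 107.5 and 53.6 CPM in T0, at 416.4, 480.9, 357.4 and 469.3 CPM in T3 and at 336.5 and 344.3 CPM in T5. All T3 and T5 values lay above T0, and the rise in T3 was 5.02-fold (log2 2.33 ± 0.25, edgeR adjusted p = 1.20e-07). Nop2, a methyltransferase of the 28S precursor (chromosome 6, 125131909 to 125144753), stood at 28.7, 31.1 and 18 CPM in T0, at 84.5, 128.1, 85.6 and 98.5 CPM in T3 and at 64.7 and 72.3 CPM in T5 (log2 1.94 ± 0.23, adjusted p = 5.92e-07). The groups did not overlap.

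The PeBoW complex, made of Pes1, Bop1 and Wdr12, processes the 60S precursor, and its genes moved by unequal amounts. Bop1 (chromosome 15, 76452989 to 76477277) stood at 30.1, 28.2 and 22.9 CPM in T0, at 77.3, 85.2, 80.4 and 86.5 CPM in T3 and at 46.1 and 52.1 CPM in T5. It had the tightest T0 group of the 3 and rose 3.05-fold (log2 1.61 ± 0.20, edgeR adjusted p = 7.64e-07). Pes1 rose 2.34-fold (log2 1.23 ± 0.21). Wdr12 stood at 25.8, 28.8 and 11.5 CPM in T0 and at 30, 32, 27.7 and 37 CPM in T3, so that 1 T3 library overlapped T0, and it did not pass (log2 0.53 ± 0.25, adjusted p = 0.105). The difference between the 3 genes was not tested. Rrs1, Nip7, Gnl3 (nucleostemin), Rrp1b, Nop16 and Noc3l rose by 1.54 to 1.92 on the log2 scale. Noc2l, a partner of Noc3l in 60S assembly, rose by 0.93 ± 0.24.

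Both abundant nucleolar proteins were higher in T3. Ncl, nucleolin, which binds ribosomal RNA (chromosome 1, 86344719 to 86359400), stood at 550.3, 818.9 and 460 CPM in T0, at 1311, 1844, 1234 and 1440 CPM in T3 and at 1234 and 1322 CPM in T5 (log2 1.26 ± 0.25, edgeR adjusted p = 2.08e-04). Npm1, nucleophosmin, a chaperone of the outer nucleolus (chromosome 11, 33152287 to 33163206), stood at 98.3, 94.8 and 46.8 CPM in T0, at 141.7, 195.2, 116.9 and 191.1 CPM in T3 and at 121.5 and 120.8 CPM in T5 (log2 1.01 ± 0.25, adjusted p = 2.51e-03). For both genes every T3 and T5 value exceeded every T0 value. Per kb of annotated mRNA and without nested snoRNA counts, Ncl at 55.6, Npm1 at 49.4 and Nop58 at 44.9 CPM per kb had the highest mean levels in T0. Imp4 at 2.16 and Wdr12 at 2.22 CPM per kb had the lowest. These levels are approximate, since the counts hold intronic reads and the annotated 3′ ends differ in length, and the T0 libraries of Ncl and Npm1 overlapped on this scale, as did those of Imp4 and Wdr12. Across the 38 genes the log2 fold change in T3 had a correlation of −0.21 with mRNA length and −0.1 with the level in T0, given as a description over genes of the same libraries.

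The added 2 h brought lower estimates for nearly the whole set, and how many passed the test depended on the T0 libraries. In T5 against T3, 37 of the 38 estimates were below 0, with Nop56 the exception and a median of −0.41, against 0.05 for all genes. With all 3 groups in the fit edgeR called none lower and none higher, where 0.888% of all genes were lower and 1.28% were higher. DESeq2 called 3 lower and 0 higher, where it called 688 of all genes lower and 335 higher. At an unadjusted p under 0.05 edgeR had 13 of the 38 lower and 0 higher, against 12.8% of all genes in either direction. Both T5 replicates lay below every T3 library for 28 of the 38, against 18.9% of all genes. T0 libraries enter this comparison through the shared estimate of the spread. Without T0 replicate 3, 13 of the 38 were lower, where 5.01% of all genes were, and with only T3 and T5 in the fit the same 13 were lower, where 5.23% of all genes were. Without T0 replicate 1 the count was 2, where 643 of all genes were lower.

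The 13 genes came from every role but the Ncl and Npm1 pair: Polr1b and Polr1c, Fbl, Noc4l, Rrp12, Wdr43, Tsr1 and Utp4, and Bop1, Rrp1b, Rrs1, Pes1 and Noc2l. Noc4l, a 40S export factor, stood at 8.61, 6.61 and 4.51 CPM in T0, at 23.2, 28, 22.2 and 24.4 CPM in T3 and at 14.1 and 13.4 CPM in T5. It had the lowest estimate, −0.83 ± 0.25 with all groups in the fit (edgeR adjusted p = 0.1) and −0.83 ± 0.15 without T0 replicate 3 (adjusted p = 0.00691). Rrp12 had −0.76 ± 0.24 (adjusted p = 0.122) and −0.76 ± 0.13 (adjusted p = 0.00463). Bop1 had −0.75 ± 0.22 (adjusted p = 0.0898) and −0.74 ± 0.13 (adjusted p = 0.00463). DESeq2 called these 3 genes lower. The estimates were close to 0 for Nop14 at −0.10 ± 0.26 and Nop58 at −0.13 ± 0.26. For Nop56 the estimate was 0.33 ± 0.36 as deposited and −0.75 ± 0.28 with nested snoRNA counts subtracted, where T5 stood below T3 (adjusted p = 0.208). Markers moved here too: myofibre markers summed to 108 to 111 CPM in T5, with 5 of 10 lower than in T3, and endothelial markers to 216 to 221 CPM, with 2 of 6 lower. Ttn and Tek, which made up most of these sums, were not called. Of the 8 satellite cell markers 3 were lower in T5 than in T3, Vcam1 by 2.67-fold, Cd34 by 2.5-fold and Myf5 by 2.27-fold, and of 5 erythroid markers Hba-a2 was higher, from a mean of 0.163 to 0.721 CPM. No immune or fibro-adipogenic marker was called, and the part of these markers in the result was not tested.

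Most of the set was also higher in T5 than in T0. The comparisons share samples, so these values are not independent of those above. In T5, 24 of the 38 genes were higher than in T0 and none was lower, where 13.2% of all genes were higher and 22.5% lower. DESeq2 called 22 higher and 0 lower, where it called 3394 of all genes higher and 7738 lower. No gene of the set was lower in edgeR at an unadjusted p under 0.05. Without T0 replicate 3, 25 were higher, where 26.2% of all genes were. The median log2 fold change was 1.00, against 0.18 for all genes, and without T0 replicate 3 it was 0.73, against 0.23. Over the alternatives that keep all 38 genes the count higher ran from 18, without T5 replicate B, to 34, with upper quartile scaling, where 22.3% of all genes were higher. By role, 0 of 6 RNA polymerase I genes, 4 of 6 snoRNP genes, 10 of 12 genes of the 40S group and 9 of 12 of the 60S group were higher, and Ncl but not Npm1. The RNA polymerase I count depends on the scaling: with upper quartile factors 4 of the 6 were higher, Polr1b (log2 1.04 ± 0.21, edgeR adjusted p = 0.00151), Polr1c, Rrn3 and Mybbp1a. That scaling moved the median of all genes from 0.18 to 0.505 in this comparison. Markers moved with T5 against T0 as well: 6 of 8 satellite cell markers were lower and 1 higher, 3 of 10 myofibre and 3 of 6 immune markers were higher, 1 of 6 fibro-adipogenic markers was higher, 1 of 5 erythroid markers was higher and 1 lower, and no endothelial marker was called. Their part in the result was not tested. Ddx21 (log2 1.99 ± 0.28, edgeR adjusted p = 5.79e-06), Nolc1 (1.89 ± 0.28) and Rrp12 (1.80 ± 0.24, adjusted p = 4.35e-06) had the highest values. Polr1a at −0.11 ± 0.27 and Ubtf at −0.20 ± 0.26 were the only estimates below 0. Both were above 0 with upper quartile scaling, at 0.29 and 0.18, but below the median of all genes under that scaling, 0.505. Without T0 replicate 3 Polr1a was at −0.37 (edgeR adjusted p = 0.0548) and Ubtf at −0.42 (adjusted p = 0.0538). Dkc1 at −0.01 and Wdr12 at −0.10 were then below 0 as well.

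**Figure D3:**
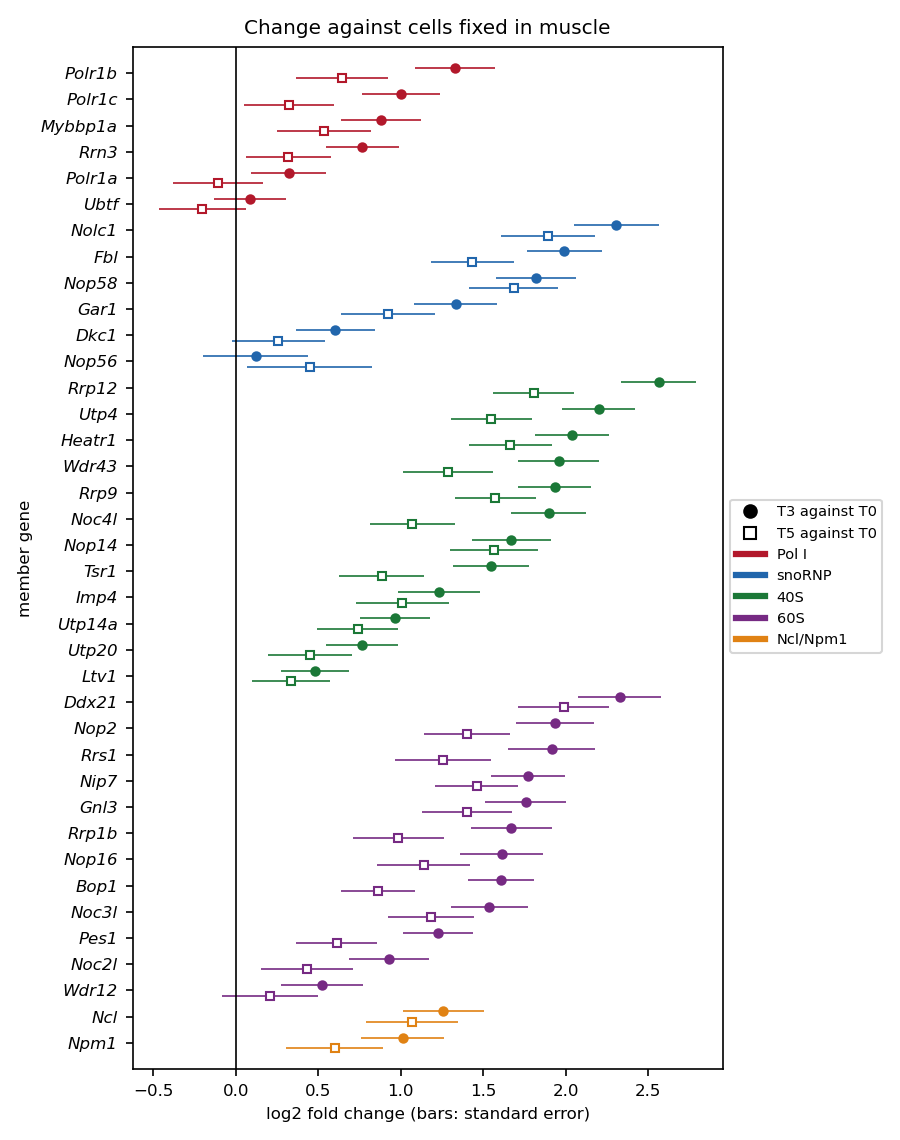
Log2 fold change with its standard error (bars) of each of the 38 genes in T3 against T0 (filled circles) and T5 against T0 (open squares), coloured by role. The square lies left of the circle for every gene but Nop56, and Ubtf and Polr1a have the only squares left of 0.

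A list of 133 further genes of the pathway was set beside the 38, and 132 were in the table and tested. In T3 against T0, 84 were higher and 6 lower (63.6% higher, against 15.0% higher and 22.9% lower over all genes), with a median of 0.83. In the 60S list 40 of 54 were higher, from Nol12 (log2 0.65 ± 0.22) to Mak16 (1.96 ± 0.24). In the 40S list 26 of 40 were higher, from Wdr3 (0.575 ± 0.219) to Rcl1 (2.07 ± 0.25), and neither list had a lower gene. Of 16 further RNA polymerase I genes 9 were higher and 3 lower. Polr1g, a subunit of the enzyme, was the highest of them (1.61 ± 0.25) and Ttf1, the factor that stops the polymerase, the lowest (−1.58 ± 0.21, edgeR adjusted p = 1.95e-06). Of 12 snoRNP genes 6 were higher and 1 lower, from Nhp2, a core H/ACA protein (1.84 ± 0.26), to Pih1d1, a cochaperone of snoRNP assembly (−1.16 ± 0.23). Of 10 exosome genes, whose products trim precursor ends, 3 were higher and 2 lower, from Dis3 (1.03 ± 0.23) to Exosc4 (−1.02 ± 0.21), counts too few to set apart from the shares over all genes.

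In T5 against T3 the same list had a median of −0.42 with 128 of 132 estimates below 0. Polr2e, a subunit shared by the 3 polymerases, was the only gene called (log2 −1.09, edgeR adjusted p = 0.0299), and it was lower, where 0.888% of all genes were; without T0 replicate 3, 43 were lower, where 5.01% of all genes were. In T5 against T0, 46 of the 132 were higher and 10 lower, against 13.2% higher and 22.5% lower over all genes, with a median of 0.42. Without T0 replicate 3 the lower count was 26, where 29.4% of all genes were lower.

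**Figure D4:**
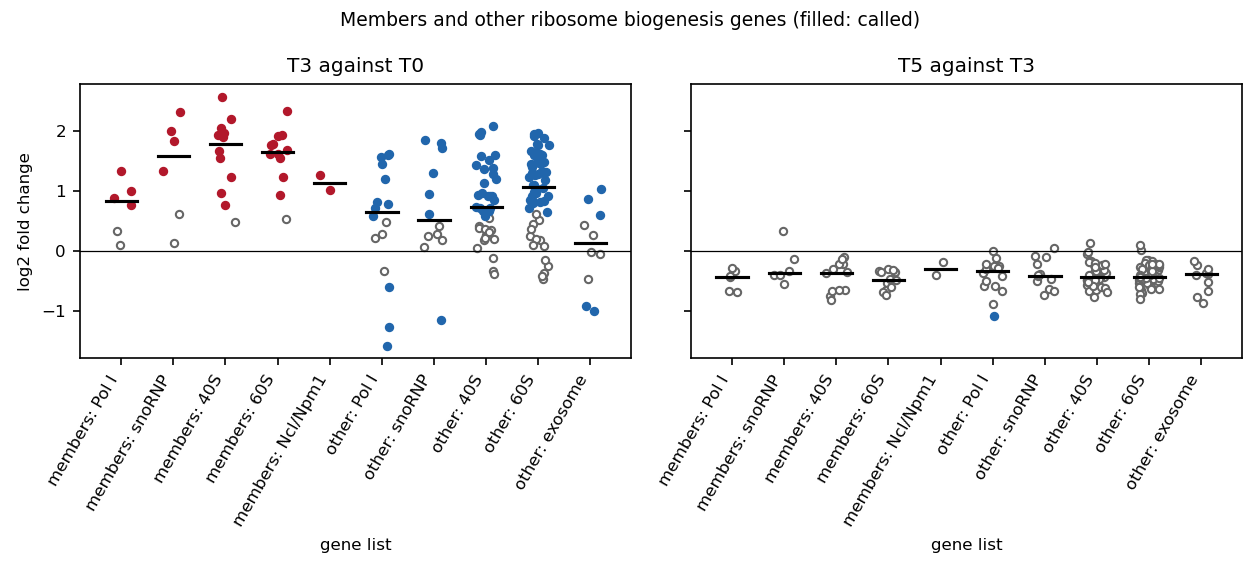
Log2 fold change of each gene (point; filled where called) in the groups of the 38 genes (members, red) and in the lists of other pathway genes (other, blue), with the median of each list as a bar; T3 against T0 on the left and T5 against T3 on the right. Medians are above 0 in every list on the left, least in the exosome list, and below 0 in every list on the right.

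Promoters are shown for the 3 genes with the largest rise among those with a promoter sequence, and for Nop56, whose estimate in the deposited counts was 0.12. The RefSeq table (GRCm38.p6, 250 bases before to 50 after the start) held 33 of the 38 genes. CACGTG, the E-box that MYC and other basic helix-loop-helix factors bind, was searched on both strands, as was CCGGAAG, the core bound by ETS factors. In the sequences below, each 5′ to 3′ on the gene's strand, capitals mark these motifs on either strand, and the promoters of Ddx21 and Nop56 hold neither.
Utp4, chr8:106893390-106893689, plus strand: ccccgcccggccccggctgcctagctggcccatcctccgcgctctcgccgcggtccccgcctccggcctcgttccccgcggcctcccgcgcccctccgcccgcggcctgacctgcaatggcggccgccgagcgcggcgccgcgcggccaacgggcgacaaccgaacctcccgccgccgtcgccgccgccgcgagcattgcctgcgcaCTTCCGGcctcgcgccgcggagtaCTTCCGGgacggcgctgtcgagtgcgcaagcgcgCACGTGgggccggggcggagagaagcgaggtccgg
Nolc1, chr19:46075597-46075896, plus strand: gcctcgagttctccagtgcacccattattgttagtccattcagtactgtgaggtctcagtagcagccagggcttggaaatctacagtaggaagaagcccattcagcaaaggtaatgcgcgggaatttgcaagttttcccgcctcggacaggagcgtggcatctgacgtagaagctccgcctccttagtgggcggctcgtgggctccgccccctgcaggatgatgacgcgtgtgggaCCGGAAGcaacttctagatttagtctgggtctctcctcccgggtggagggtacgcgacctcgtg
Ddx21, chr10:62602249-62602548, minus strand: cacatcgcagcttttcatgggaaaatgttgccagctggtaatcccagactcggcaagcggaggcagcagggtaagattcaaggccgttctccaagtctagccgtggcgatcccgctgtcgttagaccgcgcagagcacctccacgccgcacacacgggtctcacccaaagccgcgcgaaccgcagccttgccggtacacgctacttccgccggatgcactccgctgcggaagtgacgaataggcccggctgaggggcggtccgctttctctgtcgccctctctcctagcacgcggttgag
Nop56, chr2:130274162-130274461, plus strand: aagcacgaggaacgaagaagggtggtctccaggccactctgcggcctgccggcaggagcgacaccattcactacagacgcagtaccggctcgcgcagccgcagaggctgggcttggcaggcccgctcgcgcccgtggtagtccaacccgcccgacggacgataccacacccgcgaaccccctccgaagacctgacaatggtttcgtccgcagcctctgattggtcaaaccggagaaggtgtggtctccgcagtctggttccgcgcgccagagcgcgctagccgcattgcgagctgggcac

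CACGTG lay in 10 of the 33 promoters (30.3%) and in 7.24% of 27025 promoters of the table. The 10 genes were Imp4, Ltv1, Mybbp1a, Nop2, Pes1, Rrn3, Tsr1, Utp20, Utp4 and Wdr43, and their median log2 fold change in T3 against T0 was 1.23, against 1.54 for the other genes with a promoter. CCGGAAG lay in 12 of the 33 (36.4%) and in 9.12% of all promoters, with medians of 1.54 with it and 1.26 without. CTCGCGAG, a palindrome of housekeeping promoters, lay in 1 (3.03%, Tsr1) and in 0.958% of all. TATAAA lay in 2 (6.06%, Dkc1 and Pes1) and in 14.2% of all. In the sequences shown no motif overlaps another, and the shares describe the sequences, with no test.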

How the data were processed

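RNA was sequenced as 65-base single-end reads from directional libraries of RNA from fixed cells, per the labels' protocols. The authors deposited 1 table of raw counts per gene, made with STAR 2.5.0a and featureCounts 1.4.6-p3 on GRCm38, per the submitters' processing notes, which also name R 3.3.1 and DESeq2 1.12.3. The annotation release, strand setting and filters are not given in the sources used here. Intronic reads and reads of either strand were counted: Tsix had 1.004 to 1.014 times the count of Xist, which it covers on the other strand, and 245 of 246 hosts of nested snoRNA genes never fell below those genes' summed count. Of 48709 IDs, 48349 matched GENCODE vM21 and 360 did not. Columns were assigned to groups by name, and no column number corresponds to a title letter.

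Tests used edgeR 4.0.16 in R 4.3.3 (quasi-likelihood F test, two-sided, TMM, filterByExpr by group, all 3 groups in 1 fit, Benjamini-Hochberg over 31999 genes), tested on simulated data; the SE is the log2 fold change over the root of F. Alternatives were other scalings, DESeq2 1.42.0, no filter, single T5 libraries, 2 groups in the fit, a replicate block and each replicate left out. Further ones were genes without the overlaps considered above and, added after the data were seen, nested snoRNA counts subtracted. Given in full are up to 3 members of each role with the smallest p in T3 against T0, and of each other list the highest and lowest called gene. Promoters are those of the 3 members with the largest rise that the table held; that of Ubtf, with 6 starts, is not shown. Nop56, its promoter and the members that missed the threshold were added after their values were seen, as were Noc4l and the snoRNAs. Members and lists were chosen with earlier results of these data known. mRNA length is the longest principal transcript of GENCODE vM21. Riok2 was not analysed here.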

Additional observations from a re-analysis of the deposited data

Results flagged for a closer look

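Nolc1 was the only one of the 38 genes with a T3 library far from the other 3: T3 replicate 2 stood at 232.4 CPM, the highest of 4, where the others stood at 173.8, 175 and 177.4 CPM. The gap to the nearest library passed the 95% critical value of Dixon's test for 4 samples. Chance flags about 1 in 20 such groups, and 38 were looked at.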

How the results depend on the processing

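The rise of the 38 genes in T3 against T0 kept its count within 1.5 times (32 to 37) under every scaling, tool and filter tried, and ran from 32 to 34 with a replicate left out. With only genes free of the overlaps considered, 17 were higher in T3 and 12 in T5 than in T0, since fewer genes were counted. Of the other pathway genes these counts were 50 and 27, and 6 were lower in T5 than in T0. The count of the 38 lower in T5 than in T3 was 0 in the main fit, 3 with upper quartile factors, 8 with the 4 T5 libraries kept apart, 13 with 2 groups in the fit, 3 with DESeq2 and 0 to 13 with a replicate left out. For the other pathway genes it was 1, then 6, 15, 39 and 5, with 3 for no filter and 0 to 43 with a replicate left out. Over all genes it was 284, then 456, 1199, 1645 and 688, with 518 for no filter. With upper quartile factors 88 of the other pathway genes were higher in T5 than in T0, where 22.3% of all genes were. In the main fit these were 46 and 13.2%. With a replicate left out, 5 to 14 of the other pathway genes were lower in T3 than in T0, and in T5 against T0 30 to 55 were higher and 7 to 26 lower. The count of 30 came without T5 replicate B, and those of 14, 26 and 43 without T0 replicate 3. Estimates that changed sign were all of genes not called: Polr1a in T5 against T0 (0.286 with upper quartile factors, 0.124 with 2 groups, −0.371 to 0.054 with a replicate left out), Ubtf in T5 against T0 (0.182 and 0.022), and, with a replicate left out, Ubtf in T3 against T0 (−0.130 to 0.229), Nop56 in T3 against T0 (−0.296 to 0.453), Dkc1 in T5 against T0 (−0.011 to 0.510) and Wdr12 in T5 against T0 (−0.101 to 0.447). For scale, the median of all genes in T5 against T0 was 0.505 with upper quartile factors and 0.355 with 2 groups in the fit. Nop56 in T5 against T3 was −0.750 with nested snoRNA counts subtracted. Apart from that subtraction and the cases where fewer genes or samples entered, the cause was not tested. A fit with the column number as replicate block (T0 and T3 libraries 1 to 3) called 36 of the 38 higher and 0 lower in T3, and 101 of the other pathway genes higher and 5 lower. That fit called 5808 of all genes higher and 4997 lower, with a median log2 fold change over all genes of 0.373. Same-numbered libraries had correlations of −0.066, 0.224 and 0.121, so the numbers were not taken to pair the samples, and T0 libraries 1 and 3 did not correlate best with their own number. T5 has 2 replicates, which limits what its comparisons can detect.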
